A study of Rattus norvegicus with 9 samples.

Results

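Liver RNA of rats with CLP but no burn was compared with liver RNA of both other groups of the study at once. The group is the 3 arrays titled Sham-CLP 1 to 3 of 9 arrays in all; they were set against the mean of the Sham-Sham group mean and the Burn-CLP group mean, 3 arrays each. By their titles, Sham-Sham rats had a pair of sham procedures, Sham-CLP rats a sham procedure and CLP, and Burn-CLP rats a burn and CLP, so both groups with CLP share it. The labels describe whole liver and total RNA and do not spell out CLP, which in rodent work stands for cecal ligation and puncture, a model of abdominal infection. The labels give no strain, sex, age, burn size or time of collection, and they do not say that arrays came from separate animals, so p-values here reflect only how far these samples vary, possibly for technical reasons. The question is which genes peak or dip in CLP without burn, that is, have all 3 Sham-CLP arrays above, or all 3 below, the other 6. A peak or dip was called where the difference also passed limma's moderated test at a Benjamini-Hochberg adjusted p under 0.05. Choosing the arrays used the titles only; choosing genes by non-overlap used the values, so the counts of such genes are given beside the same count over all genes.

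The liver answers infection and injury with the acute phase response, in which hepatocytes raise the output of defence proteins, and with changes in lipid metabolism. Hepatocytes make cholesterol from acetyl-CoA through the mevalonate pathway: early enzymes build isoprenoid units, squalene synthase and squalene epoxidase lead to lanosterol, and later enzymes trim lanosterol to cholesterol. The pathway's genes are textbook targets of the transcription factor SREBP-2, which acts with the CCAAT-binding factor NF-Y, and the fatty acid synthesis genes are targets of the related SREBP-1c.

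None (0) of the 8 hepatocyte markers was at the floor, a normalized signal of 64.3 below which values were not ranked, on all 9 arrays. Deposited array medians were 205 to 212.4 in Sham-CLP, 231.3 to 235.5 in Burn-CLP and 215.1 to 268.1 in Sham-Sham, and quantile normalization set them equal. Over log2 signals Sham-Sham 1 correlated least with the rest, at a mean r of 0.907, while the remaining 8 arrays had 0.937 to 0.958. Sham-Sham 3 had a higher mean correlation with the Sham-CLP arrays (0.968) than with its own group (0.936), as did Sham-Sham 2 (0.954 and 0.946) and Burn-CLP 3 (0.970 and 0.961). The Sham-CLP arrays also stood apart in controls that are no part of the rat RNA. Of 18 probe sets for the bacterial and phage hybridization controls, 5 had all 3 Sham-CLP arrays above the other 6 after quantile normalization. The count was 5 with the deposited scaling and 9 with a common median, and none (0) had them below. Over all genes tested, the shares above were 1.63%, 1.98% and 5.90% in the same order. The 18 probe sets measure bioB, bioC, bioD and cre repeatedly, so they are not independent of each other. By mean difference, 12, 17 and 18 of the 18 were higher in Sham-CLP in that order. The median difference of these controls was 0.16, 0.22 and 0.40 on the log2 scale, and their part in the results below was not tested. Results are therefore also given without single arrays. The number of arrays limits the precision.

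Of 13535 probe sets tested, 2 passed the test, 0.0148% of those tested, and both were higher in Sham-CLP than in the mean of both other groups. One of them, Ntf3, was a peak (0.00739% of those tested), and there was no dip (0 probe sets; limma). Lcn2, the lipocalin 2 gene of the acute phase response, passed without being a peak. Its signals were 618, 637 and 752 in Sham-Sham, 19319, 20703 and 11853 in Sham-CLP and 14048, 17438 and 19319 in Burn-CLP, and both CLP groups overlapped. The difference was 2.33 ± 0.21 on the log2 scale (± SE, adjusted p = 0.0107, limma), and the call was lost without Sham-CLP 1 (0.157) or Sham-CLP 2 (0.074). On that scale Lcn2 in Sham-CLP was 4.66 above Sham-Sham but only 0.0008 above Burn-CLP. A test against the mean of both other groups can thus pass a gene that rose equally in both CLP groups. Below the threshold, 926 probe sets (6.84%) had an unadjusted p under 0.05, 487 higher (3.6%) and 439 lower (3.24%). All 3 Sham-CLP arrays lay above the other 6 for 227 probe sets (1.68%) and below them for 197 (1.46%), of which 175 and 133 had an unadjusted p under 0.05. No probe set (0) differed from Sham-Sham and from Burn-CLP in the same direction with an adjusted p under 0.05 for each; 8 (0.0591%) passed against Sham-Sham and 2 (0.0148%) against Burn-CLP, 2 comparisons that share the Sham-CLP arrays.

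Most of these non-overlapping probe sets differed little. The median size of the difference was 0.54 on the log2 scale among the 227 above and 0.45 among the 197 below, and 30 of the former against 4 of the latter passed a log2 difference of 1. The gap between the nearest arrays of the 2 sides had a median of 0.08 above and 0.07 below. Burn-CLP was nearer to Sham-CLP than Sham-Sham was for 122 of the 227 and 99 of the 197. The balance of higher and lower rested on the scaling. With the deposited scaling 245 probe sets lay above and 471 below, and with arrays set to a common median 697 lay above and 130 below, while the median difference over all probe sets moved from -0.0045 to -0.095 and 0.077. Gene lists are therefore read against the same share over all genes.

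**Figure D1:**
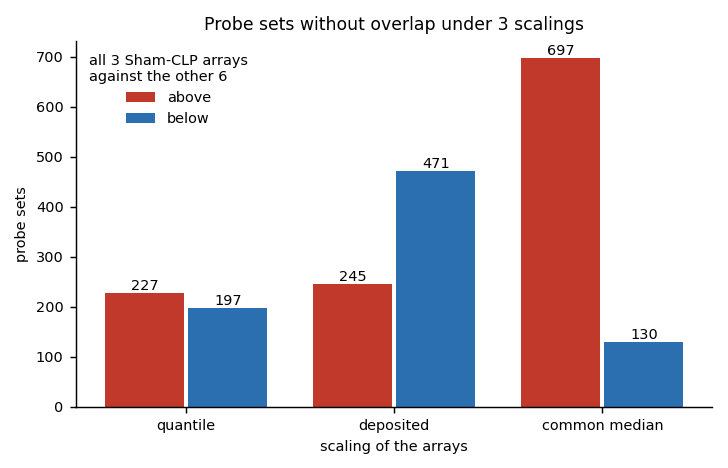
Number of probe sets (vertical axis) with all 3 Sham-CLP arrays above (red) or below (blue) the other 6, under quantile normalization, the deposited scaling and scaling to a common median. The bars read 227 and 197, 245 and 471, and 697 and 130, so the excess changes side with the scaling.

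Cholesterol synthesis genes had their highest group means in CLP without burn, although no member passed the test in the reported fit. With array weights Pmvk and Ebp passed. Of 20 listed genes, 17 were tested, and the rest were not analysed here. All 17 had their highest group mean in Sham-CLP and all 17 an unadjusted p under 0.05 (3.6% of probe sets were higher at that level), but adjusted p-values ran from 0.246 to 0.714 and 0 were called (limma). All 3 Sham-CLP arrays lay above the other 6 for 13 of the 17 (76.5%), against 1.63% of the 9339 genes tested. The median difference from the mean of both other groups was 1.10 on the log2 scale, where the median over all genes was -0.0036. Against Sham-Sham alone the median difference was 1.41, and the median of Burn-CLP minus Sham-CLP was -0.96 and that of Burn-CLP minus Sham-Sham 0.45. The list was drawn up with earlier results of these arrays known, among them its higher level in Sham-CLP than in Sham-Sham, so that side is not independent evidence. All 17 were also lower in Burn-CLP than in Sham-CLP by group mean, but both sides share the Sham-CLP arrays and are not independent of each other.

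The promoters of the sterol genes among the 12 highest-ranked peaks (Ntf3 and, below the threshold, those with the next smallest p) are shown because all 3 Sham-CLP arrays lay above the other 6 for each; Pmvk, also among the 12, had no window. Each sequence is the 250 bases before the RefSeq gene start, in build GRCr8, 5′ to 3′ on the gene's strand, with CCAAT or its reverse complement ATTGG in capitals.
Ebp, chrX:16971212-16971461, plus strand: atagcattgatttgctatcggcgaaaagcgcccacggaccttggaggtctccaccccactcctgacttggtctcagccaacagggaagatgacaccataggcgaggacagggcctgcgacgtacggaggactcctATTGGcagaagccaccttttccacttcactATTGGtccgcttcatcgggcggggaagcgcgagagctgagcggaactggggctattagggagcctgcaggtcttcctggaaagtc
Lss, chr20:12118231-12118480, minus strand: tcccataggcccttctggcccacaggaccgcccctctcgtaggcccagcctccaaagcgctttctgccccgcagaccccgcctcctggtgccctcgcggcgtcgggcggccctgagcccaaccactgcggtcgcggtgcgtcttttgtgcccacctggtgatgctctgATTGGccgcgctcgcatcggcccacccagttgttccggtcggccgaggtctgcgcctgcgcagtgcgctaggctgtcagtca
Idi1, chr17:66547525-66547774, minus strand: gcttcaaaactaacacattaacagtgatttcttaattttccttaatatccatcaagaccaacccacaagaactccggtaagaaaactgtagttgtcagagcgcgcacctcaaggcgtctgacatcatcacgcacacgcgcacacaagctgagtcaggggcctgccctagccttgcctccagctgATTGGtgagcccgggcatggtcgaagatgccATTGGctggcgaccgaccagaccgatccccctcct
Tm7sf2, chr1:212789542-212789791, minus strand: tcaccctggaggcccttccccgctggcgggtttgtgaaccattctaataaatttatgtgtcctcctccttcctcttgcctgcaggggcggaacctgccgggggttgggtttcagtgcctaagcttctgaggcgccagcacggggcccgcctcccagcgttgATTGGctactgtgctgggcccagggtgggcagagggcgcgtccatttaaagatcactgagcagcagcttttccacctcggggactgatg
Cyp51, chr4:30991443-30991692, plus strand: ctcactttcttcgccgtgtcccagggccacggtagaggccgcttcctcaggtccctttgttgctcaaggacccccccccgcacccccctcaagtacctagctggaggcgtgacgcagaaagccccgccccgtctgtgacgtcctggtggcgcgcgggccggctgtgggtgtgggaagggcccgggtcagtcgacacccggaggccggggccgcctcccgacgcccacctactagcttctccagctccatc
Ebp and Idi1 hold a pair of matches each, Lss and Tm7sf2 1 each and Cyp51 none (0). The Lss match begins 82 bases before the start, that of Tm7sf2 89 bases and the nearer one of Ebp 85 bases. RefSeq windows were matched for 14 of the 17 sterol genes, and 11 of them (78.6%) held CCAAT on either strand, against 34.3% of 27457 windows of the same length, 1 per gene. TCACNCCAC, a form of the sterol regulatory element, was in none of the 14 (0) and in 0.976% of all windows, and no match says only that these letters are not in this window. CACGTG was in 7.14% of the 14 and in 5.79% of all, and TTATGNAAT in 0 of the 14 and 0.754% of all. These are letter matches, not measured binding.

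Among the enzymes that build isoprenoids, Pmvk (phosphomevalonate kinase) read 634, 455 and 507 in Sham-Sham, 1158, 973 and 979 in Sham-CLP and 484, 534 and 557 in Burn-CLP. The Sham-CLP arrays stood clear of the other 6, which overlapped each other, and the difference was 0.98 ± 0.16 (log2 ± SE, n = 3 arrays per group, adjusted p = 0.246, limma). Idi1, the isopentenyl diphosphate isomerase gene, had 2 probe sets. One read 489, 378 and 1101 in Sham-Sham, 2162, 2529 and 1628 in Sham-CLP and 808, 576 and 1011 in Burn-CLP (1.62 ± 0.33). The brighter one differed by 1.38 ± 0.48 and overlapped, because Sham-Sham 3 read 2512 and Sham-CLP 3 2490.2. Acat2, the cytosolic thiolase that starts the pathway, had the widest difference of the list by the probe sets used, 1.81 ± 0.49, and was above the other 6 arrays. Mvd, which decarboxylates mevalonate diphosphate, was above them by 1.00 ± 0.38, while Mvk (mevalonate kinase) differed by 1.10 ± 0.47 with overlap. Fdps, which joins isoprenoids to farnesyl diphosphate, read 2907, 2792 and 7781 in Sham-Sham, 10244, 11113 and 10338 in Sham-CLP and 5733, 4583 and 6102 in Burn-CLP (1.18 ± 0.31).

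From squalene to lanosterol, Fdft1 (squalene synthase) was above the other 6 arrays by 0.80 ± 0.31 and Sqle (squalene epoxidase) by 1.74 ± 0.52. Lss, which closes the rings of lanosterol, was above them at both probe sets. At the dimmer one, Sham-CLP read 999.9, 1136 and 934, Burn-CLP 238, 64.3 and 551 and Sham-Sham 94.1, 64.3 and 64.3. With 2 of 3 Sham-Sham arrays and 1 of 3 Burn-CLP arrays at the floor, its difference of 3.06 ± 0.53 (adjusted p = 0.259, limma) is a lower bound for this probe set only, not for the gene. The brighter probe set differed by 1.57 ± 0.35, with 2402, 2395 and 1928 in Sham-CLP, 1045, 649 and 1688 in Burn-CLP and 759.8, 302 and 674 in Sham-Sham. Both probe sets placed Burn-CLP between the other groups by mean, with its 3 arrays spread widely.

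After lanosterol, Ebp (sterol isomerase) read 1872, 2099.5 and 3236 in Sham-Sham, 6504, 6427 and 6784 in Sham-CLP and 4035, 4014 and 4487 in Burn-CLP. The 3 groups did not overlap, with Burn-CLP in the middle, and the difference was 1.07 ± 0.18 (adjusted p = 0.259). Cyp51 (lanosterol demethylase) was above the other 6 arrays at both probe sets, by 0.99 ± 0.22 and 0.97 ± 0.23. Tm7sf2, a sterol reductase, showed the other shape: it read 5169, 5429 and 5745 in Sham-CLP, 3129, 3395 and 3886 in Sham-Sham and 1709.7, 2459.9 and 2839 in Burn-CLP, where it was lowest (0.95 ± 0.18, adjusted p = 0.303). Nsdhl, a sterol dehydrogenase, had the same order of means, 3192 ± 345 (SD) in Sham-CLP, 2063 ± 558 in Sham-Sham and 1086 ± 576 in Burn-CLP. Hsd17b7 (3-ketosteroid reductase, 1.23 ± 0.34) and Sc5d (sterol desaturase, 0.80 ± 0.27) were above the other 6 arrays. Msmo1 (1.34 ± 0.48) and Dhcr7 (0.67 ± 0.24), which also act after lanosterol, differed with overlap. Burn-CLP had a higher mean than Sham-Sham for 13 of the 17 genes. Second probe sets were above the other 6 arrays for Mvk (0.64) and Fdft1 (0.68), and overlapped for Hsd17b7 (0.88) and Sc5d (0.55).

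Per array, the 17 genes separated the Sham-CLP arrays from the rest while one control stood close. Relative to each gene's mean over the 9 arrays, the median over the genes was 0.82, 0.70 and 0.62 in Sham-CLP, with all 17 genes above their own mean on each of the 3 arrays. It was -0.69, -0.93 and 0.33 in Sham-Sham and -0.045, -0.52 and 0.13 in Burn-CLP. Sham-Sham 3 had 13 genes above their own mean and Burn-CLP 3 had 12, against 0 in Sham-Sham 1 and Sham-Sham 2. Mvk, Idi1, Msmo1 and Dhcr7 overlapped. Without Sham-Sham 3 all 17 genes were above the remaining 5 arrays, against 2.82% of genes, the median difference was 1.28, and 2 members were called (Fdps and Ebp). Without Sham-CLP 3, 16 of 17 were above the other 6, all but Dhcr7, against 3.93% of genes. The list's median stayed between 1.02 and 1.28 when any 1 array was left out, was 1.29 (deposited scaling) and 1.30 (common median) relative to all genes, and the same 13 genes were above the other 6 under both scalings. The shares above over all genes were then 1.98% and 5.9%.

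**Figure D2:**
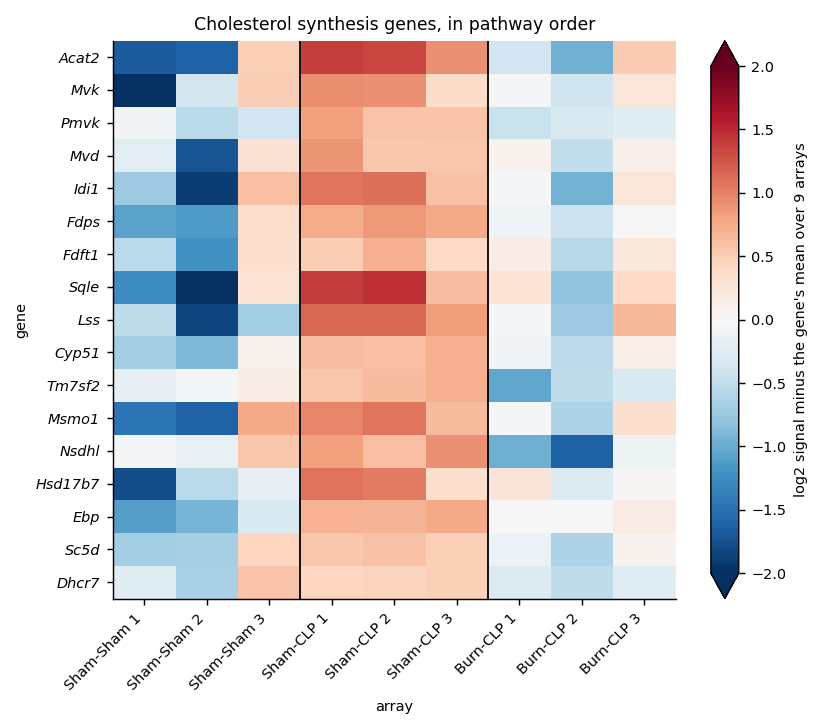
Log2 signal of the 17 tested cholesterol synthesis genes (rows, in pathway order) on the 9 arrays (columns), as the difference from each gene's mean over 9 arrays; red is higher and blue lower, and colours end at 2 on either side. The 3 Sham-CLP columns are red throughout, Sham-Sham 3 is above the mean for 13 genes, and the Burn-CLP columns have medians of -0.045, -0.52 and 0.13.

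Genes that regulate, take up or export sterols had no such pattern after quantile normalization. Of 16 tested, 0 had all 3 Sham-CLP arrays above or below the other 6, 0 were called (limma), and 1 higher and 1 lower had an unadjusted p under 0.05. The median was 0.13, and 1 gene lay above with the deposited scaling (1.98% of all genes) and 4 with a common median (5.90% of all genes). The genes below are given for their role and were chosen outside the naming rule. Srebf2, which encodes SREBP-2, differed by 0.27 ± 0.21, Srebf1 by 0.80 ± 0.28, and Scap, the escort protein of both, by 0.40 ± 0.22. Insig1, which retains SREBP in the endoplasmic reticulum, differed by 0.35 ± 0.27 and Insig2 by -0.59 ± 0.23.

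Fatty acid synthesis genes had the next largest share of genes above the other 6 arrays after quantile normalization, a rank they did not hold under other scalings. All 3 Sham-CLP arrays were above the other 6 for 6 of 22 genes tested (27.3%, against 1.63% of all genes) and below for 0, the median difference was 0.32, and 0 were called. Acss2, which makes acetyl-CoA from acetate, read 2044, 1365 and 2547 in Sham-Sham, 4657, 4545 and 4291 in Sham-CLP and 1599, 2234 and 2981 in Burn-CLP. Its other groups overlapped each other and lay below Sham-CLP by 1.13 ± 0.24 (adjusted p = 0.468, limma). Acly, which makes cytosolic acetyl-CoA from citrate, read 1006, 1133 and 1977, 3238, 3179 and 2448 and 1159, 759.9 and 1833 in the same order (1.24 ± 0.30), and Burn-CLP overlapped Sham-Sham. Acaca (acetyl-CoA carboxylase) differed by 0.59 ± 0.15 at the brighter probe set and by 0.60, with overlap, at the other. Elovl6, a fatty acid elongase, differed by 0.79 ± 0.23, Fasn (fatty acid synthase) by 1.52 ± 0.44 and Pgd, an NADPH-producing enzyme, by 0.45 ± 0.14. Triglyceride assembly had no such member: Gpam differed by 0.36 ± 0.27, Dgat1 by -0.17 ± 0.16 and Dgat2 by 0.10 ± 0.22, each named outside the rule. Of the 22 genes, 6 were above with the deposited scaling and 7 with a common median, where the shares over all genes were 1.98% and 5.90%.

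Outside the lists, Ntf3 was the called peak. It encodes neurotrophin 3, a growth factor best known from the nervous system. All 3 Sham-Sham arrays were at the floor, Sham-CLP read 229, 220.3 and 218 and Burn-CLP 136, 105 and 142. The 3 groups did not overlap, and the difference was 1.30 ± 0.14 (n = 3 arrays per group, adjusted p = 0.0366, limma). The floor left no spread among the Sham-Sham arrays, so this SE and p can be too small. Sham-CLP was at least 3.46-fold above Sham-Sham and 1.76-fold above Burn-CLP, and the latter step did not pass by itself (adjusted p = 0.21). The call was narrow. It was lost with the deposited scaling (adjusted p = 0.121), a common median (0.0586), either other floor (0.136 and 0.0803), limma's trend and robust options (0.115), the other 6 arrays as 1 group (0.879) or the replicate number as a block (0.16). It was also lost without Sham-Sham 1 (0.0849), Sham-Sham 2 (0.106), any 1 Sham-CLP array (0.189 to 0.489), Burn-CLP 1 (0.136) or Burn-CLP 3 (0.05002), and held without Sham-Sham 3 or Burn-CLP 2.

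The next peaks did not pass, beginning with Cyb5r3 at an adjusted p of 0.187. Cyb5r3 is the cytochrome b5 reductase that hands electrons to fatty acid and sterol desaturases. It read 3399, 2822 and 3185 in Sham-Sham, 5538, 6165 and 5783 in Sham-CLP and 2419, 2538 and 3148 in Burn-CLP. The Sham-CLP arrays lay well above both other groups, which overlapped, by 1.01 ± 0.15, or 1.86-fold over Sham-Sham and 2.17-fold over Burn-CLP. It passed with trend and robust (adjusted p = 0.021) and with array weights (0.0261), and over all alternatives its adjusted p ran from 0.021 to 0.897. The others include genes close to the floor. Gucy1b2, a guanylate cyclase subunit, read 165, 170.1 and 163 in Sham-CLP and at most 113 elsewhere (1.16 ± 0.19), and 2 Burn-CLP arrays were at the floor. Rfc4, a clamp loader subunit of DNA replication, read 132, 127 and 114 and at most 84.2 elsewhere (0.80 ± 0.15). Col27a1, a fibrillar collagen gene, read 142, 246 and 198 and at most 109 elsewhere (1.12 ± 0.21). Of the 12 highest-ranked peaks, 6 were probe sets of cholesterol synthesis genes (Pmvk, Ebp, Lss, Tm7sf2, Idi1 and Cyp51). That list held 17 of the 9339 genes tested. Its members are already described above, so this count is not separate evidence.

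**Figure D3:**
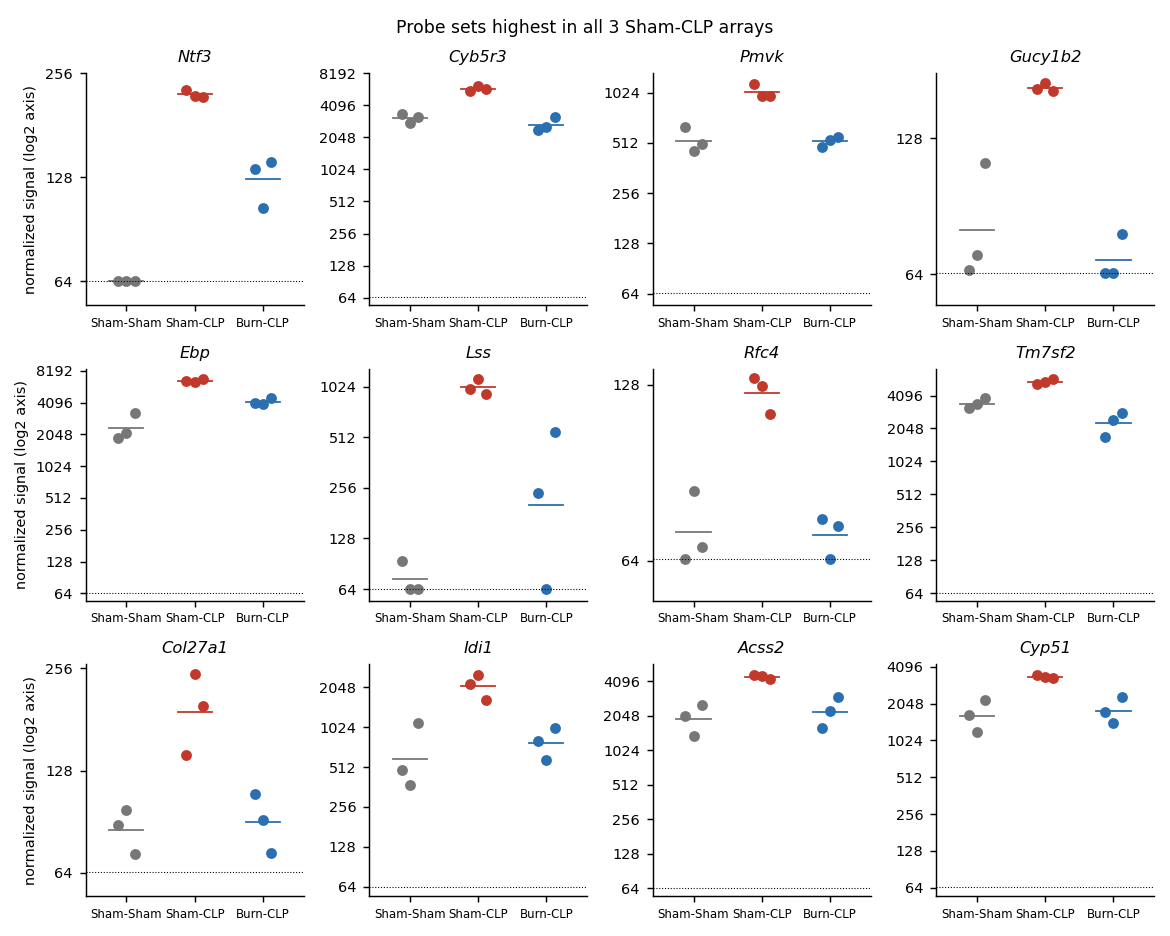
Normalized signal (log2 axis) of the 12 highest-ranked peaks on each array, by group; points are arrays, bars are group means of log2 values, and the dotted line is the floor of 64.3. All 3 Sham-CLP points lie above the other 6 in every panel, which is how the probe sets were chosen; for Ntf3 and Ebp all Burn-CLP points lie between the other groups, and for Tm7sf2 all lie below them.

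No dip passed, and 7 of the 12 with the smallest p had a Sham-CLP array at the floor. Adjusted p-values ran from 0.378 for Aqp4 to 0.594 for Snrnp40 (limma). Aqp4, a water channel gene, was at the floor on all 3 Sham-CLP arrays, with 151, 128.3 and 158 in Sham-Sham and 154, 145 and 82.0 in Burn-CLP, so it was at least 2.26-fold and at least 1.90-fold lower. Its other probe sets were too low to be tested. F2rl3, a thrombin receptor gene, and Lrfn5, a synaptic adhesion gene, were also at the floor on all 3 Sham-CLP arrays, and no array of the other groups exceeded 129 for either. Shank1, a synaptic scaffold gene, sat on the floor in 2 of 3 Sham-CLP arrays (-0.98 ± 0.20), while a second probe set had a difference of 0.29, opposite in sign. Nkd1, a Wnt pathway inhibitor, had 1 of 3 at the floor (-0.96 ± 0.23), as did Snrnp40, a spliceosome gene (-0.91 ± 0.23), whose other probe set had a difference of 0.54. The other Nkd1 probe set differed by -0.57, with overlap.

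Other dips were above the floor on all 9 arrays, except 1 Sham-CLP array of Cd37. Aig1, a fatty acid ester hydrolase gene, read 793, 872 and 833 in Sham-Sham, 579, 582 and 376 in Sham-CLP and 889, 743 and 776 in Burn-CLP (-0.70 ± 0.18). Efcab14 read 156, 189 and 201 in Sham-CLP and at least 228 elsewhere (-0.90 ± 0.20), highest in Burn-CLP. Crlf3, a cytokine receptor-like gene, read 152, 195 and 191 and at least 240.2 elsewhere (-0.75 ± 0.18). Tspan2, a tetraspanin gene, differed by -0.69 ± 0.17 and the unnamed locus LOC102549726 by -0.83 ± 0.21, the latter 2.28-fold higher in Burn-CLP than in Sham-CLP. A second Tspan2 probe set differed by -0.25, with overlap and 2 of 3 arrays of each group at the floor. Cd37, a tetraspanin of B cells, read 64.3, 67.9 and 80.2 in Sham-CLP and at least 90.7 elsewhere (-0.70 ± 0.17).

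**Figure D4:**
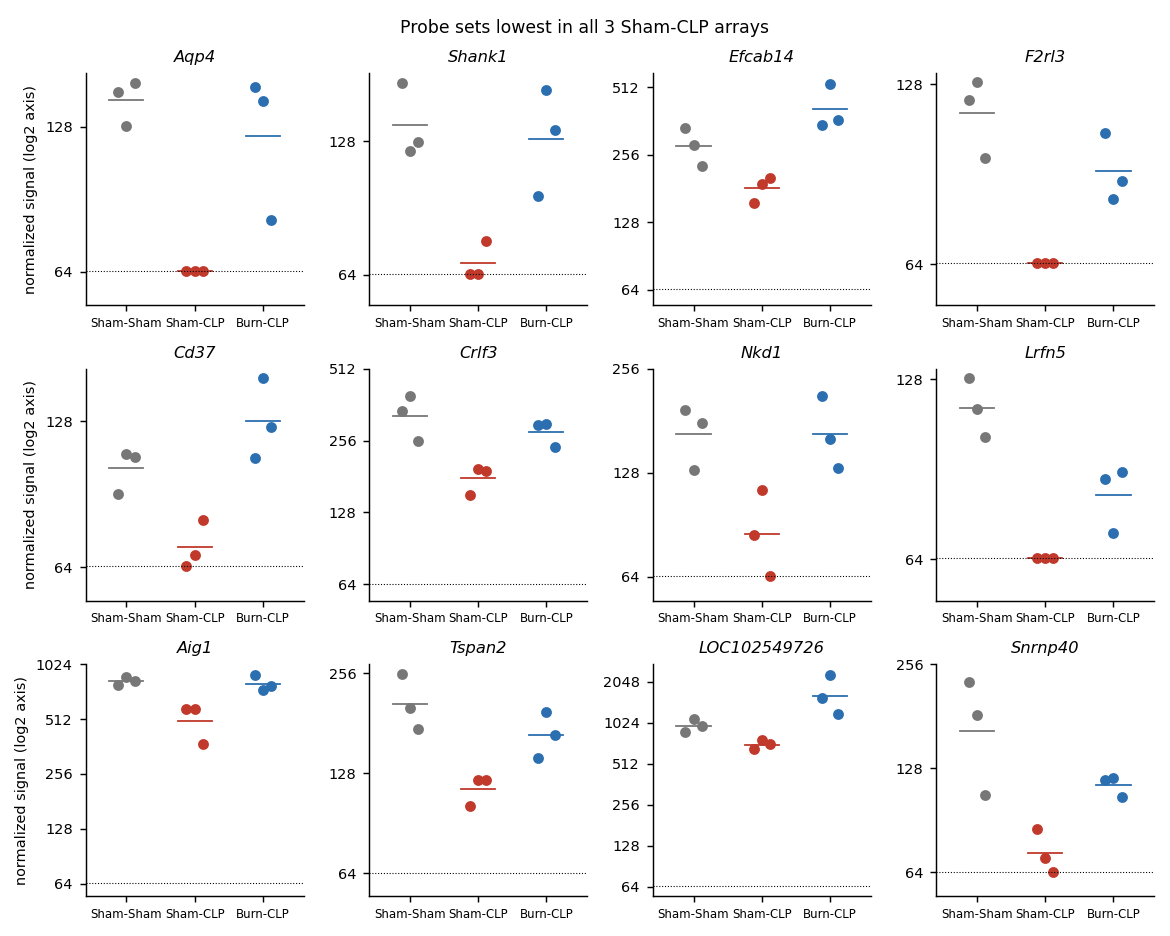
Normalized signal (log2 axis) of the 12 dips with the smallest p on each array, by group; points are arrays, bars group means of log2 values, and the dotted line is the floor of 64.3. All 3 Sham-CLP points lie below the other 6 in every panel, which is how the probe sets were chosen, and in 7 panels at least 1 of them sits on the floor.

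Cd37 was 1 of 2 lymphocyte and natural killer cell markers below the other 6 arrays; the other was Klrd1 (-0.54 ± 0.17). The 2 are of 16 tested (12.5%), against 1.47% of all genes. Of the 16, 0 were called, 3 had an unadjusted p under 0.05 and were lower, and the median difference was -0.19. The summed signal of the 17 markers on the array was 2499 to 2572 in Sham-CLP, 2669 to 3013 in Burn-CLP and 2738 to 3394 in Sham-Sham, with none (0) at the floor throughout, so the sum itself was lowest in Sham-CLP. Fewer cells of a type and less RNA per cell cannot be told apart in whole liver, and the part of this sum in other results was not tested. Cd4 and Lck, the brightest of the list, differed by -0.06 ± 0.18 and -0.35 ± 0.18, with overlap. With the deposited scaling 4 markers lay below (3.36% of all genes), and 2 with a common median (0.922% of all genes).

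Other marker lists had sums that overlapped between Sham-CLP and the remaining arrays. Macrophage markers differed by 0.07 ± 0.13 (Ctsb) and -0.30 ± 0.26 (Cd14), neutrophil markers by -0.11 ± 0.23 (Cybb) and -0.26 ± 0.26 (Ncf1), endothelial markers by -0.27 ± 0.25 (Kdr) and 0.13 ± 0.30 (Lyve1). Stellate cell and fibroblast markers differed by -0.02 ± 0.19 (Col3a1) and 0.02 ± 0.14 (Reln), blood markers by -0.06 ± 0.14 (Hbb) and -0.01 ± 0.20 (Hba-a3), hepatocyte markers by -0.01 ± 0.13 (Alb) and 0.04 ± 0.12 (Serpina1), and pancreas and gut markers by 0.11 ± 0.44 (Cela1) and -0.22 ± 0.18 (Pnlip). Of the bile duct list, Krt18, a keratin that hepatocytes also express, was below the other 6 arrays (-0.44 ± 0.15) and Krt8 differed by -0.02 ± 0.17. As whole lists, 11 of 14 stellate cell and fibroblast markers had a negative difference (median -0.23), 7 of 8 bile duct markers (-0.25), 4 of 5 pancreas and gut markers (-0.28), 6 of 9 endothelial markers (-0.27) and 6 of 8 neutrophil markers (-0.24). The medians were 0.02 for 10 macrophage markers, 0.02 for 8 hepatocyte markers and -0.0039 for 6 blood markers. Single members below the other 6 arrays were Cd74, the MHC class II invariant chain (-0.77 ± 0.23), and Col1a1 (-0.62 ± 0.21), both named after their values were seen.

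Smaller groups below the other 6 arrays depended on the scaling. Among ribosomal protein genes 4 of 40 lay below (10%, against 1.47% of all genes), 36 of 40 had a negative difference and the median was -0.14. Rpl14 differed by -0.37 ± 0.14, Rps23 by -0.32 ± 0.13, Rpl34 by -0.27 ± 0.13 and Rps6 by -0.22 ± 0.12. Set against all genes, the list's median was 0.075 with the deposited scaling and 0.083 with a common median, so its direction flips, and the count below was 1 and 0. Proteasome genes had 3 of 30 below (10%): Psma1 differed by -0.58 ± 0.17, Psmd11 by -0.32 ± 0.14, with 0.02 at its other probe set, and Psma5 by -0.22 ± 0.14. That count was 2 with the deposited scaling and 0 with a common median, and the median over the 30 was 0.01. For both lists, the shares below over all genes under these scalings were 3.36% and 0.922%.

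Glycolysis and glucose genes had 2 of 22 below (9.09%, against 1.47% of all genes). With the deposited scaling 2 were below and 2 above (3.36% and 1.98% of all genes), and with a common median 0 and 3 (0.922% and 5.90%). Pgk1, which makes ATP in glycolysis, read 4246, 1987 and 3129 in Sham-Sham, 1656, 1595 and 1545 in Sham-CLP and 2119.8, 1874 and 3515 in Burn-CLP (-0.74 ± 0.27), and its other tested probe set differed by -0.18 with overlap. Eno1 (enolase) read 3628, 4375 and 3356, 3104, 2990.2 and 3179 and 5169, 4496 and 3927 in the same order (-0.41 ± 0.15), with the highest mean in Burn-CLP. Heat shock genes had 15 of 17 below 0, with 0 of them below the other 6 arrays and 0 at an unadjusted p under 0.05; the median was -0.17, and -0.05 and -0.04 relative to all genes under the other scalings.

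In bile acid handling, 2 of 19 genes were above the other 6 arrays (10.5%, against 1.63% of all genes). Nr1h4, which encodes the bile acid receptor FXR, read 1201, 1106 and 1167 in Sham-Sham, 1408, 1223 and 1269.7 in Sham-CLP and 531, 559.9 and 823 in Burn-CLP. Sham-CLP lay just above Sham-Sham, and Burn-CLP far below both (0.61 ± 0.17), so most of this difference is with Burn-CLP. Slco1a1, an organic anion uptake transporter, differed by 0.41 ± 0.20, with Sham-CLP 3 at 2874 and Burn-CLP 3 at 2850.1. Of 37 amino acid breakdown and urea cycle genes, 2 were above (5.41%): Mccc1 of leucine breakdown (0.37 ± 0.14) and Kmo of tryptophan breakdown (0.34 ± 0.17). With the deposited scaling 5 of the 37 and 2 of the 19 were above (1.98% of all genes), and with a common median 10 and 4 (5.90%).

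Lists of the classical response to infection held few or no such genes after quantile normalization; for some of them this depended on the scaling. The acute phase list had 1 called gene of 29, Lcn2, and 0 above or below the other 6 arrays, with a median of 0.08. No gene (0) lay above or below them among 29 fatty acid oxidation and ketone body genes (median -0.05), 18 lipid droplet and fatty acid handling genes (0.11), 24 immediate early genes (0.21), 28 endoplasmic reticulum folding genes (-0.05), 37 xenobiotic metabolism genes (0.03), 48 respiratory chain genes (-0.01), 21 cell cycle genes (-0.14) and 26 genes of growth hormone, IGF and insulin signalling (-0.04). The glucocorticoid response list had 1 above of 21, Sgk1 (0.42 ± 0.17), a kinase gene, and a median of 0.06. The circadian list had 1 above of 13, the repressor gene Bhlhe40 (0.99 ± 0.25), plasma proteins that fall in inflammation 1 of 16, Apoa1 (0.30 ± 0.15), antioxidant genes 1 below of 18, Txnrd1 (-0.45 ± 0.17), and interferon genes 1 below of 26, Gbp2 (-0.79 ± 0.26). Against the background shares, 1 gene in lists of this size is not a result about the list. The counts above were larger with the deposited scaling and with a common median for the acute phase list (10 and 14 of 29), the plasma proteins that fall in inflammation (9 and 11 of 16), xenobiotic metabolism (5 and 11 of 37) and the respiratory chain (2 and 12 of 48). Immediate early genes and the growth hormone, IGF and insulin list had 0 above and 0 below under both. Over all genes the shares above were 1.98% and 5.90%. Of the 26 interferon genes, 4 were below with the deposited scaling (3.36% of all genes). With a common median 1 was below (0.922% of all genes). Of the 8 hepatocyte markers, 4 and 5 were above under these scalings, and their part in these counts was not tested.

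**Figure D5:**
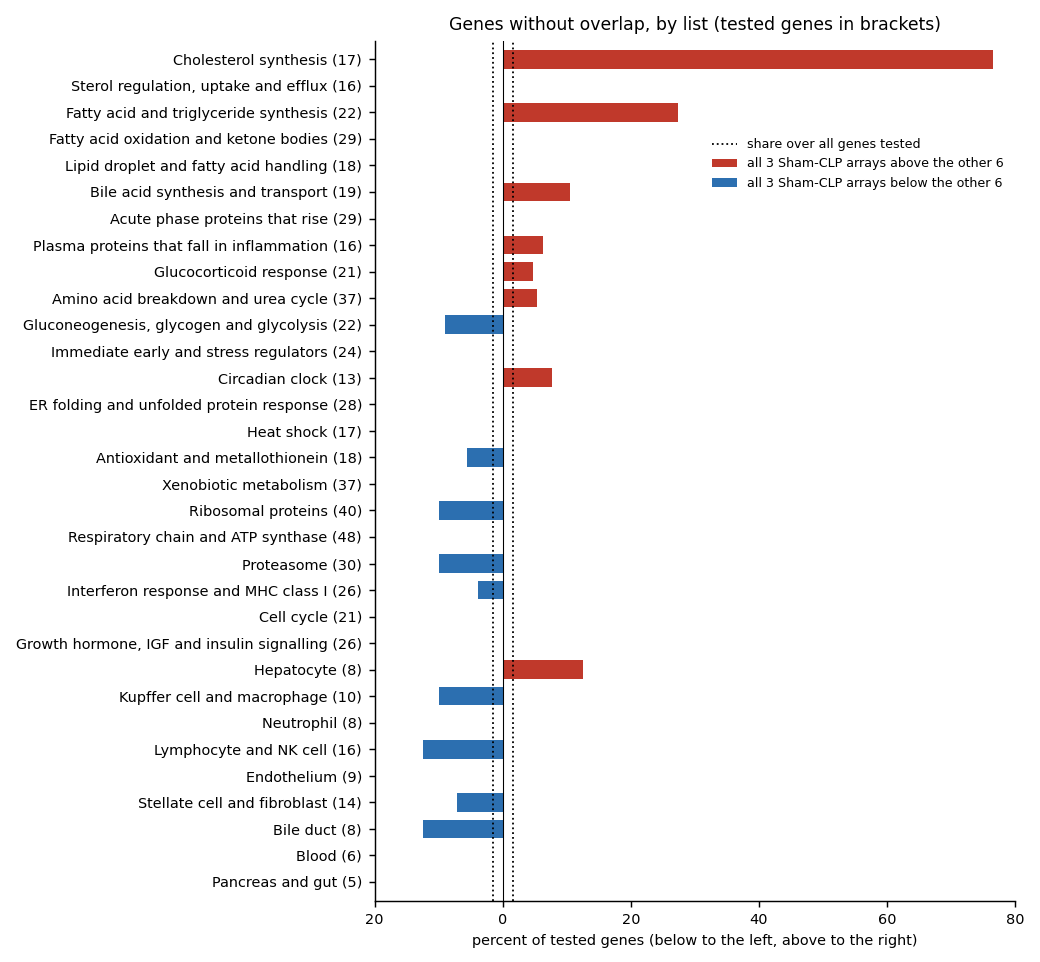
Percent of tested genes in each list (number in brackets) with all 3 Sham-CLP arrays above (red, right) or below (blue, left) the other 6, by the brightest probe set of each gene; dotted lines are the shares over all 9339 genes, 1.63% and 1.47%. Cholesterol synthesis reaches 76.5% and fatty acid and triglyceride synthesis 27.3%.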

How the data were processed

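The study put total liver RNA of rats on 9 oligonucleotide arrays of 1 colour, 3 per group. The authors deposited linear intensities of 15923 probe sets, whose mean after trimming 2% at each end was 500.1 to 500.2 on every array. The software behind them was not given in the sources used here. Arrays were quantile normalized with the 57 control probe sets, values under the 20th percentile (64.3) were set to that floor, log2 was taken, and the 13535 probe sets other than controls with at least 3 of 9 arrays above the floor were tested. Symbols came from the platform annotation, updated to GRCr8 RefSeq: 12783 probe sets had 1 symbol, 312 several and 2771 none, and those with several were not named. The 11121 tested probe sets with 1 symbol stand for 9339 genes, and lists used the brightest probe set of each.

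One fit of 3 group means in limma 3.58.1 (R 4.3.3; lmFit, eBayes) gave the difference Sham-CLP minus the mean of both other group means, with Benjamini-Hochberg adjustment over all probe sets tested. A difference is on the log2 scale with its standard error (SE) unless a fold is named; signals are normalized intensities. Where every array of a group was at the floor, the fold is a lower bound. That group then shows no spread, so the SE and p can be too small. Members, the 23 gene lists and the 9 marker lists were chosen with earlier results of these data known. Named genes were, in each direction, the 12 called probe sets without overlap with the largest difference, filled up by smallest p where fewer passed, up to 4 members of each list with 2 or more genes without overlap in 1 direction, and the 2 brightest markers of each cell type. The rest of the cholesterol list was added so that each member is given. Family members may cross-hybridize. The steps were tested on simulated data. The alternatives were other scalings, floors, filters and spread estimates, array weights, a replicate block and leaving out each array.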

Additional observations from a re-analysis of the deposited data

How the results depend on the processing

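The count of 2 called probe sets was 1 with the deposited scaling, a common median, the floor at the 30th percentile or only probe sets with a mean above the median, 6 without the filter, 9 with array weights and 0 with the other 6 arrays as 1 group; it ran from 0 to 7 without 1 array. The 1 peak became 0 with the deposited scaling, a common median, the 30th percentile floor, bright probe sets only or the other 6 arrays as 1 group. It became 2 with the 10th percentile floor (Arpp21 and Grin1, not Ntf3), 2 without the filter and 7 with array weights, and ran from 0 to 6 without 1 array, 6 without Sham-Sham 3 and 2 without Burn-CLP 2. With trend and robust the 1 peak was Cyb5r3. Dips stayed at 0 in each alternative. Probe sets that differed from both groups the same way, 0 in the reported fit, numbered 2 with the 10th percentile floor, 3 with array weights and 0 to 2 without 1 array. Probe sets above the other arrays numbered 697 with a common median and 293 to 547 without 1 array; those below numbered 471 with the deposited scaling, 130 with a common median, 130 with bright probe sets only and 263 to 460 without 1 array, where fewer arrays overlap by construction. Lcn2 lost its call with the other 6 arrays as 1 group (adjusted p = 0.952), with the replicate block (0.0993), without Sham-CLP 1 (0.157) and without Sham-CLP 2 (0.074). All 12 named peaks and 12 named dips kept their direction wherever they were tested, which their choice by non-overlap makes nearly certain. At the 30th percentile floor only 9 of the 12 dips were tested, and 6 of them still had no overlap. With a common median 11 of the 12 dips had none. With the replicate number as a block, 0 probe sets were called and 0 were peaks. In their deviations from the group means, same-numbered arrays correlated at -0.026 to 0.081 and differently numbered ones at -0.072 to 0.037. Every array except Burn-CLP 1 correlated best with one of its own number, a hint from the data and not the design. The labels do not say that a number pairs arrays, so whether they share more than a number cannot be told. Values at the floor have no order, which limits most dips.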
